A study of Homo sapiens with 8 samples.

Results

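The libraries compared here came from U87, a human glioblastoma line in long use: 2 were made from cells kept long-term on AsiDNA and given 1 µM belinostat for 24 h (called the combination), and 2 from cells given the same belinostat treatment without AsiDNA. They are 4 of the 8 libraries of the study and were chosen by their labels. The other 4 served as context, 2 from cells kept on AsiDNA alone and 2 from cells given DMSO, the solvent. The labels give no dose or length for AsiDNA and do not say that replicates were separate cultures, so the p-values below reflect the spread among these libraries alone, and that spread may be technical. The combination libraries held 6426752 and 8335614 counts and the belinostat libraries 8842228 and 6057394, and 3 counts equalled 0.339 to 0.495 CPM, counts scaled to a fixed library total. The mesenchymal marker VIM and the adhesion receptor CD44 were found in every library. GFAP, an astrocyte marker, had 8 counts in all 8 libraries together, and SOX2, AIF1, CDH5 and STMN2, markers of stem-like glioma cells, microglia, endothelium and neurons, had 0. Other markers were found: the endothelial genes PECAM1 and VWF had 667 and 36 counts and the macrophage genes CSF1R and CD14 had 627 and 21. PECAM1 had 13.5 and 16 CPM in the combination and 20.6 and 18.9 CPM with belinostat, and neither PECAM1 nor CSF1R passed the test described below. In bulk RNA, fewer cells with a transcript and less of it per cell cannot be told apart.

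Belinostat inhibits histone deacetylases, the enzymes that take acetyl groups off histones and other proteins. AsiDNA is a short double-stranded DNA molecule that imitates a DNA break and draws the repair kinase DNA-PK and the polymerase PARP away from real breaks. The contrast asks what long-term AsiDNA changes in cells that are under deacetylase inhibition. RNA from whole cells mixes finished messages in the cytoplasm with RNA that stays in the nucleus, such as MALAT1, NEAT1 and unspliced introns. A difference in the nuclear portion moves the measured level of many genes at once, and total RNA libraries such as these record both portions.

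The 2 treatments differed widely. Of 14741 genes tested with edgeR's quasi-likelihood test, 6398 or 43.4% passed an adjusted p under 0.05 (Benjamini-Hochberg). Of these, 3237 were higher in the combination (22% of genes tested) and 3161 were lower (21.4%). Changes of at least 2-fold leaned downward, with 597 genes higher (4.05%) and 1688 lower (11.5%). Both libraries of the combination lay above both belinostat libraries in 38.3% of genes and below them in 39%. The median log2 fold change was -0.008 over all genes, and the median size among genes that passed was 0.82, against a median standard error of 0.2. Below, log2 fold changes are of the combination over belinostat and are given ± this standard error, and CPM values are scaled with edgeR's TMM factors and listed by library.

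The strongest rises were of histone genes. Replication-dependent histones package new DNA during S phase, and their messages end in a stem-loop in place of a poly(A) tail, so that they are seen in total RNA libraries. H2AC12, an H2A gene on chromosome 6 (27147129 to 27147515, GRCh38), had 24.0 and 22.7 CPM in the combination, against 3.52 and 3.05 CPM with belinostat. It had 94.5 and 104 CPM with AsiDNA and 86.6 and 48.4 CPM with DMSO. The combination stood above belinostat and below the other groups, with no overlap, and the log2 fold change over belinostat was 2.81 ± 0.31 (edgeR adjusted p = 0.000251). The linker histone gene H1-5 had 125 and 127 CPM in the combination, against 23.6 and 26.9 CPM with belinostat, a log2 fold change of 2.32 ± 0.25 (edgeR adjusted p = 0.000251). H3C2, an H3 gene, had 61.9 and 73.4 CPM in the combination, against 10.2 and 12 CPM with belinostat, and H4C4, an H4 gene, had 33.0 and 46.1 CPM against 6.22 and 5.59 CPM. In neither gene did the groups overlap, and the log2 fold changes were 2.62 ± 0.29 and 2.74 ± 0.31.

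The rise covered nearly the whole family. Of 61 histone genes in the list 51 could be tested, of which 50 were higher in the combination, 49 of them by at least 2-fold, and 0 were lower. The list median was 2.02, against -0.008 for all genes. The 5 linker histone genes had a median of 1.81, the 13 H2A genes 2.22, the 16 H2B genes 1.87, the 9 H3 genes 2.29 and the 8 H4 genes 2.12. Within the families the log2 fold changes ranged from 1.75 to 2.32 for H1 and from 0.65 to 2.97 for H3. H3C6, an H3 gene with 0.667 and 2.05 CPM in the combination and 0.939 and 0.847 CPM with belinostat, was the member that did not pass. Summed over the list, the histone genes gave 1768 and 1943 CPM in the combination and 495 and 472 CPM with belinostat, while AsiDNA gave 4682 and 4928 CPM and DMSO 4343 and 2372 CPM. The combination lay above both belinostat libraries and below all 4 of the others. Reads can be shared among histone genes, which resemble each other closely, and the list is firmer than any 1 of its members.

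The promoters of these genes carry short motifs that differ by family, and 3 of them are shown because their genes are among the 12 largest rises and belong to different families. The windows are the 250 bases before the gene start in RefSeq (GRCh38.p14), each read 5′ to 3′ on the gene's own strand. Capitals mark matches, on either strand, to the octamer ATTTGCAT, the H1 box AAACACA, the CCAAT box CCAAT and the TATA box TATAAA. The first lies at chr6:27893175-27893424 (plus strand), the second at chr6:27867589-27867838 (minus strand) and the third at chr6:26189113-26189362 (minus strand).
H2BC17: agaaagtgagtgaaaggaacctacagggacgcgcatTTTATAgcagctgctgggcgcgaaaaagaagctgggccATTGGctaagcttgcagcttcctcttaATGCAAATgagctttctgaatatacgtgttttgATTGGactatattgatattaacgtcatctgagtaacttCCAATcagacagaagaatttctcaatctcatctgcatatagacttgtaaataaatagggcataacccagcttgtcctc
H1-5: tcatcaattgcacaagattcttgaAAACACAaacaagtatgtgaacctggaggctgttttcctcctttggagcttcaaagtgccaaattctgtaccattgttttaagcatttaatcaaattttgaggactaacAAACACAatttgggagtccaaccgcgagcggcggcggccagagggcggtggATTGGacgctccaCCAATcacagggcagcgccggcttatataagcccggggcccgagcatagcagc
H4C4: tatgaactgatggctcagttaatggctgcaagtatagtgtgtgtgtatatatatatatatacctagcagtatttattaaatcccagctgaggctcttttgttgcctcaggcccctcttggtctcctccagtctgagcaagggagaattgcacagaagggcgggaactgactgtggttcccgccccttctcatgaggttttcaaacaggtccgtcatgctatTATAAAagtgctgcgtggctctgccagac

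Windows were found for 46 of the 51 tested histone genes. The octamer, which the factor POU2F1 binds in H2B promoters, occurred in 13 of 16 H2B windows and 10 of 12 H2A windows but in 0 of the H1, H3 and H4 windows, against 1.66% of all 27305 gene windows. The H1 box was found in all 5 H1 windows and in no other window of the list, against 4.95% of all. CCAAT was found in 41 of the 46 windows, against 33% of all, and in 1 of 6 H4 windows. TATAAA was found in 32 of the 46, against 11.1% of all, at any position of the window and on either strand. In H4C4 the match lay on the gene's own strand and began 29 bases before the start. In H2BC17 it lay on the other strand, 214 bases before the start. The family medians lay between 1.81 and 2.29, and log2 fold changes were not compared by presence of a motif. A match is a description of the sequence and does not show that a factor was bound.

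Some small structured RNAs were also higher, although small RNAs in general were not. Of 53 small nucleolar RNAs tested 7 were higher and 6 lower (median -0.76), of 44 miscellaneous RNAs 4 were higher and 15 lower (median -1.60), and of 33 small nuclear RNAs 0 were higher and 8 lower (median -0.50). RMRP, the RNA of the nuclease RNase MRP, had 13.4 and 27.3 CPM in the combination, against 2.82 and 3.90 CPM with belinostat, a log2 fold change of 2.64 ± 0.39 (edgeR adjusted p = 0.000464). RN7SL1, which encodes the 7SL RNA of the signal recognition particle in the cytoplasm, had 1083 and 1265 CPM in the combination, against 236 and 254 CPM with belinostat (2.26 ± 0.22, edgeR adjusted p = 0.0002). The close copies RN7SL2 and RN7SL3 were at 2.05 ± 0.19 and 2.08 ± 0.18, and reads may be split among the copies. SCARNA10, a small Cajal body RNA, had 30.4 and 36.0 CPM in the combination, against 5.05 and 8.13 CPM with belinostat (2.37 ± 0.51). In none of these 5 genes did the groups overlap. The call of SCARNA10 was lost without belinostat replicate 1 (2.09, edgeR adjusted p = 0.0503), and its direction turned when a measure of nuclear RNA was a term of the model (-0.28 and -0.34 in the 2 fits described below).

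**Figure D1:**
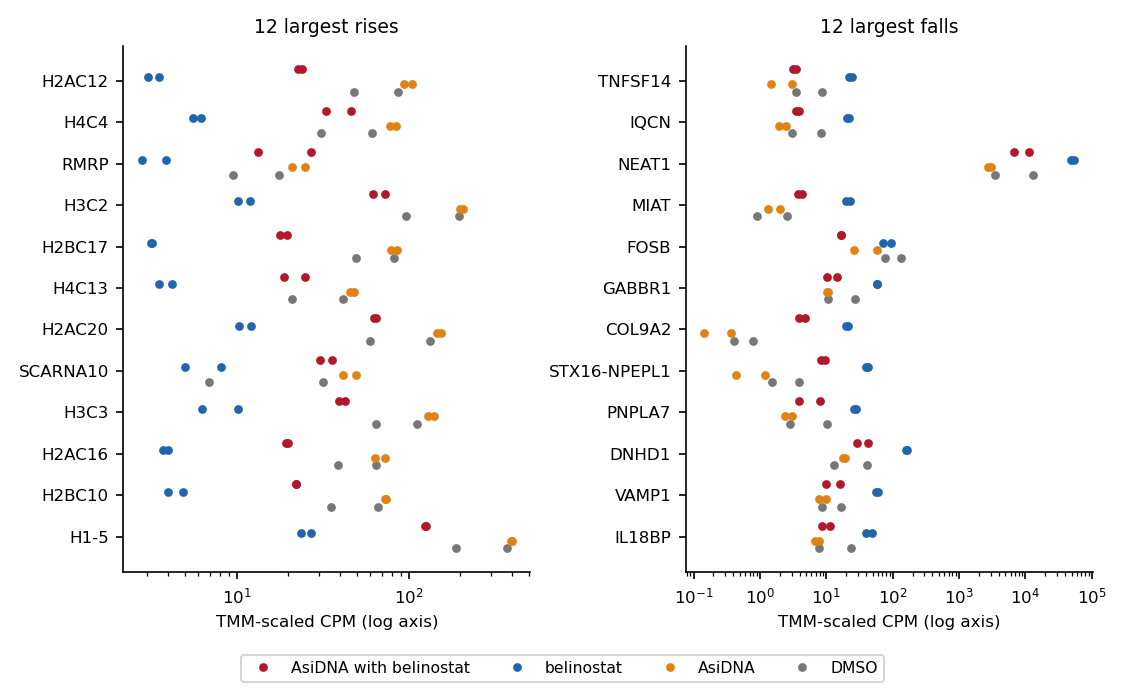
TMM-scaled CPM in each library (points, log axis) for the 12 largest rises and the 12 largest falls of the combination against belinostat, with AsiDNA and DMSO libraries for context. The 24 genes were chosen among those whose combination and belinostat libraries did not overlap, and 10 of the 12 rises shown are replication-dependent histone genes, for example H2AC12 at 24.0 and 22.7 CPM in the combination and 3.52 and 3.05 CPM with belinostat.

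Genes for making proteins were higher in the combination. Of 41 ribosomal protein genes tested 38 were higher and 0 lower, with a median of 0.77. RPS2, of the small subunit, had 373 and 364 CPM in the combination, against 143 and 152 CPM with belinostat (1.32 ± 0.16), and RPLP2, of the large subunit's stalk, had 426 and 473 CPM against 181 and 177 CPM. Both stood above the AsiDNA libraries, which had 342 and 353 CPM for RPS2 and 393 and 409 CPM for RPLP2. Of 17 heat shock chaperones 12 were higher and 0 lower (median 0.72), among them HSPA8, a constitutive HSP70, with 1095 and 1141 CPM in the combination against 655 and 553 CPM with belinostat. Calls of higher genes rose with expression among protein-coding genes, to 33.9% at a mean log2 CPM of 5 to 7 and 49.2% over 7. Against 22% of all genes higher and 21.4% lower, genes that build ribosomes had 11 of 30 higher and 5 lower (median 0.26). Those lower numbered 1 or 2 with any 1 of the 4 compared libraries left out. From the same list, nucleolin, NCL, was called higher, at 210 and 211 CPM in the combination against 119 and 130 CPM with belinostat. Pseudogenes can take part of the reads of ribosomal protein genes.

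Genes of DNA replication were also higher, in 24 of 39 cases with 1 lower (median 0.53), against 22% and 21.4% of all genes. The helicase subunit MCM2 had 150 and 151 CPM in the combination, against 76.4 and 66.2 CPM with belinostat (1.08 ± 0.13, edgeR adjusted p = 0.000271), and the thymidine kinase gene TK1 had 102 and 104 CPM against 43.5 and 39.6 CPM (1.30 ± 0.17). Without combination replicate 2, 14 of the 39 were higher, and the gene called lower was lost whichever of the 4 compared libraries was left out. Of 43 genes of G2 and mitosis 17 were higher and 4 lower (median 0.29), with the survival protein gene BIRC5 at 85.8 and 90.1 CPM in the combination against 40.4 and 33.5 CPM with belinostat, and the mitotic kinase gene CDK1 at 86.3 and 88.4 CPM against 58.7 and 58.8 CPM. Both were well below their level with AsiDNA alone, where BIRC5 had 268 and 271 CPM and CDK1 had 191 CPM in both libraries. The count of mitotic genes higher fell to 9 without belinostat replicate 1 and to 11 without combination replicate 2, and that of mitotic genes lower fell to 1 without belinostat replicate 2 and to 2 without combination replicate 2.

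Genes of energy supply, lipids and matrix turnover followed, to be read against 22% of all genes higher and 21.4% lower. Of 28 nuclear genes for the respiratory chain 17 were higher and 0 lower (median 0.48), for example ATP5F1B, the catalytic subunit of ATP synthase, with 629 and 650 CPM in the combination against 359 and 325 CPM with belinostat. This count was 10 without combination replicate 2. Of the 13 protein genes of the mitochondrial genome 7 were higher and 0 lower (median 0.58), with MT-CO3, a subunit of cytochrome oxidase, at 2625 and 2432 CPM against 1247 and 980 CPM. The mitochondrial count ranged from 4 without combination replicate 1 or belinostat replicate 2 to 12 without combination replicate 2. Of 24 genes for cholesterol and fatty acid synthesis 10 were higher and 3 lower (median 0.36), among them SCD, a fatty acid desaturase, at 1295 and 1309 CPM in the combination against 563 and 583 CPM with belinostat. The count higher was 5 without combination replicate 2 and 6 without belinostat replicate 2, and the count lower was 0 or 1 with any 1 of the compared libraries left out.

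Among matrix proteases and inhibitors of such proteases 12 of 23 genes were higher and 1 lower (median 0.31), and the call of the lower gene was lost with any 1 compared library left out. TIMP1, an inhibitor of matrix metalloproteases, had 1317 and 1302 CPM in the combination, against 412 and 352 CPM with belinostat (1.78 ± 0.18, edgeR adjusted p = 0.0002). With AsiDNA it had 895 and 890 CPM and with DMSO 719 and 469 CPM, so that the combination libraries were the highest of all 8. VIM, the intermediate filament of mesenchymal cells, had 3848 and 4123 CPM in the combination, against 1478 and 1372 CPM with belinostat (1.48 ± 0.19). The matrix list itself was mixed, with 12 of 29 genes higher and 6 lower, against 22% and 21.4% of all genes. The share lower was thus near that of all genes. By expression, 33.9% of protein-coding genes at a mean log2 CPM of 5 to 7 and 49.2% over 7 were higher. The hyaluronan synthase gene HAS2 was at 1.69 ± 0.25. The fibrillar collagen genes COL1A1 and COL3A1 were at -0.94 ± 0.13 and -1.70 ± 0.26. The matrix genes higher numbered 6 without combination replicate 2 and 8 without combination replicate 1.

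The largest falls were of a mixed set of genes. TNFSF14, a cytokine of the TNF family, had 3.5 and 3.2 CPM in the combination, against 24.4 and 21.9 CPM with belinostat, a log2 fold change of -2.79 ± 0.38 (edgeR adjusted p = 0.000338). GABBR1, a subunit of the GABA-B receptor, had 14.7 and 10.4 CPM in the combination, against 59.3 CPM in both belinostat libraries (-2.26 ± 0.32). COL9A2, a chain of collagen IX, had 3.84 and 4.74 CPM against 21.4 and 19.8 CPM (-2.25 ± 0.27). For GABBR1 the combination overlapped the AsiDNA and DMSO libraries, which had 10.3 to 27.4 CPM, whereas COL9A2 was at or below 0.780 CPM without belinostat. Other large falls were of IQCN (-2.55 ± 0.37), the vesicle fusion gene VAMP1 (-2.17 ± 0.27), the interleukin-18 antagonist gene IL18BP (-2.15 ± 0.36), the lysophospholipase gene PNPLA7 (-2.20 ± 0.43) and DNHD1 (-2.18 ± 0.33). STX16-NPEPL1, a readthrough of neighbouring genes whose reads cannot be told from theirs, was at -2.21 ± 0.28.

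Long noncoding RNAs that stay in the nucleus were lower. NEAT1, the scaffold of paraspeckles (chromosome 11, 65422774 to 65445540), had 11310 and 6837 CPM in the combination, against 48390 and 55030 CPM with belinostat, a log2 fold change of -2.51 ± 0.43 (edgeR adjusted p = 0.00083). MALAT1, found in nuclear speckles, had 22140 and 15160 CPM in the combination, against 77860 and 82320 CPM with belinostat, a log2 fold change of -2.10 ± 0.31 (edgeR adjusted p = 0.00045). The imprinting RNA KCNQ1OT1 had 245 and 158 CPM against 818 and 873 CPM (-2.07 ± 0.31), and MIAT had 4.34 and 3.71 CPM against 23.0 and 20.2 CPM (-2.43 ± 0.32). All 4 showed groups that did not overlap. Of 18 such RNAs tested 12 were lower and 1 higher, with a median of -0.67, and 0 were higher without belinostat replicate 2 or combination replicate 2. The host genes of small nucleolar RNAs leaned the same way, with 8 of 15 lower and 2 higher (median -0.48), against 21.4% and 22% of all genes. SNHG17 fell by 1.34 and SNHG1 by 1.0, while SNHG16 rose by 1.19. Without combination replicate 2, 4 of these 15 were lower.

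Among regulators of splicing more members were lower than higher. Of 7 CLK and SRPK kinases, which phosphorylate SR splicing factors, 5 were lower and 1 higher (median -0.82). CLK1 had 57.7 and 60.4 CPM in the combination, against 123 and 140 CPM with belinostat (-1.15 ± 0.17). Without combination replicate 2, 3 of the 7 were lower, and 0 were higher without that library or belinostat replicate 2. Of 26 SR and hnRNP factors 12 were lower and 4 higher (median -0.23), with 2 higher without combination replicate 2. SRSF2, an SR protein, had 193 CPM in both combination libraries, against 387 and 399 CPM with belinostat (-1.02 ± 0.11, edgeR adjusted p = 0.000251), and SON, a scaffold of nuclear speckles, had 180 and 150 CPM against 396 and 389 CPM (-1.25 ± 0.14). Of 16 paraspeckle proteins 6 were lower and 4 higher, and without combination replicate 2 these counts were 3 and 2. Of all genes 21.4% were lower and 22% higher. SR genes and CLK1 are known for transcripts that keep an intron and stay in the nucleus.

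HDAC1, HDAC2 and HDAC3, which belinostat inhibits, did not pass the test. HDAC1 had 60.7 and 63.1 CPM in the combination, against 64.5 and 62.0 CPM with belinostat, a log2 fold change of -0.03 ± 0.12 (edgeR adjusted p = 0.855). HDAC2 was at 0.31 ± 0.13 and HDAC3 at -0.12 ± 0.12, with edgeR adjusted p of 0.076 and 0.446. Of 17 deacetylases and sirtuins 6 were lower and 0 higher (median -0.12). The tubulin deacetylase gene HDAC6 had 61.2 and 48.9 CPM in the combination against 104 and 108 CPM with belinostat (-0.95 ± 0.15), and SIRT7 had 38.9 and 32.8 CPM against 76.9 and 84.9 CPM (-1.18 ± 0.16). With any 1 of the 4 compared libraries left out, 2 or 3 were lower. Of 17 acetyltransferases and BET readers 7 were lower and 1 higher, against 21.4% and 22% of all genes. Without combination replicate 2 these counts were 3 and 0, and without belinostat replicate 2 the count higher was 0. A list of known deacetylase inhibitor responders had 4 of 16 tested members higher and 2 lower (median 0.19). Summed over the list, CPM was 3938 and 3929 in the combination and 3239 and 2826 with belinostat. Its largest fall was of the dehydrogenase gene DHRS2 (-1.69 ± 0.20). DHRS2 had 23.7 and 23.4 CPM in the combination against 88.3 and 63.0 CPM with belinostat. The metallothionein gene MT1X, of the same list, had 488 and 502 CPM against 247 and 169 CPM (1.25 ± 0.17).

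Immediate early genes, the first to respond to a growth stimulus, had 4 of 22 members higher and 4 lower (median -0.08), which is close to the 22% and 21.4% of all genes. FOSB, a subunit of the AP-1 factor, had 16.7 and 16.8 CPM in the combination, against 93.2 and 72.7 CPM with belinostat, a log2 fold change of -2.31 ± 0.33 (edgeR adjusted p = 0.000403). FOS had 27.9 and 30.4 CPM against 150 and 93.8 CPM (-2.07 ± 0.27), and EGR1, a zinc finger factor, had 49.2 and 45.1 CPM against 130 and 164 CPM (-1.64 ± 0.25). In all 3 the combination was also below the lowest AsiDNA library. IER3, an anti-apoptotic early gene, was at 0.79 ± 0.13.

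DNA repair genes showed no common direction. PRKDC, the catalytic subunit of DNA-PK, had 976 and 1010 CPM in the combination, against 850 and 670 CPM with belinostat, a log2 fold change of 0.39 ± 0.14 (edgeR adjusted p = 0.0388), and passed in 1 of the 4 fits that left out a compared library. It did not pass without belinostat replicate 2 (0.28, edgeR adjusted p = 0.168), combination replicate 1 (0.48, edgeR adjusted p = 0.0617) or combination replicate 2 (0.41, edgeR adjusted p = 0.125). Its Ku partners were higher by more: XRCC5 had 396 and 439 CPM against 236 CPM in both belinostat libraries (0.82 ± 0.15), and XRCC6 had 259 and 281 CPM against 153 and 139 CPM (0.89 ± 0.16). PARP1 had 88.9 and 97.1 CPM in the combination against 64.6 and 50.1 CPM with belinostat (0.69 ± 0.15), and the cell cycle inhibitor CDKN1A had 87.3 and 83.4 CPM against 50.1 and 43.4 CPM (0.86 ± 0.15). For PRKDC, XRCC5, PARP1 and CDKN1A the combination lay below every AsiDNA and DMSO library. XRCC5 had 651 and 632 CPM with AsiDNA and 621 and 440 CPM with DMSO, and PARP1 had 156 and 148 CPM and 157 and 128 CPM. For XRCC6 the combination lay below AsiDNA (328 and 339 CPM) and between the DMSO libraries (332 and 226 CPM). End joining had 4 of 17 genes higher and 2 lower, homologous recombination 5 of 30 higher and 8 lower, nucleotide excision repair 7 of 20 higher and 8 lower, and the Fanconi anemia list 3 of 18 higher and 2 lower. Their medians were -0.02, -0.09, -0.01 and -0.08. Leaving out 1 compared library changed these small counts: homologous recombination had 1 to 6 higher and 2 to 5 lower, nucleotide excision repair 3 to 5 lower, end joining 2 to 4 higher and 0 to 2 lower, and the Fanconi anemia list 1 or 2 higher. Without combination replicate 2, homologous recombination had 1 higher and 2 lower, end joining 2 higher and 1 lower, and nucleotide excision repair 3 lower. Of all genes 22% were higher and 21.4% lower, and no set test was made.

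**Figure D2:**
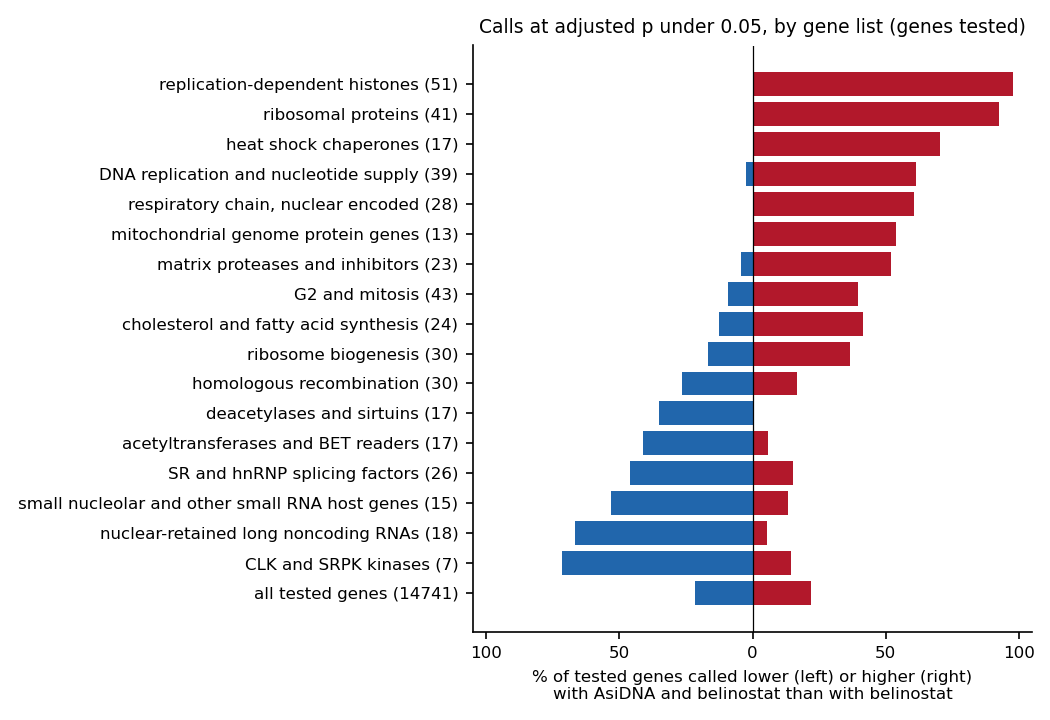
Percentage of tested genes in each list called lower (bars to the left) or higher (bars to the right) in the combination than with belinostat at an adjusted p under 0.05, with the number tested in brackets. Histone genes have 50 of 51 higher and ribosomal protein genes 38 of 41, nuclear long noncoding RNAs have 12 of 18 lower, and all tested genes stand at 22% higher and 21.4% lower.

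Classes of RNA moved with these changes. MALAT1 and NEAT1 together took 3.12% and 2.06% of counts in the combination, against 12.2% and 13.4% with belinostat, a ratio of 0.203. They took 0.753% and 0.688% with AsiDNA and 0.911% and 2.81% with DMSO. By this measure the combination stayed above both AsiDNA libraries and DMSO replicate 1. Sense-intronic genes, transcripts annotated inside the introns of another gene, took 0.0561% and 0.044% in the combination, against 0.128% and 0.142% with belinostat, a ratio of 0.371. AsiDNA was at 0.0556% and 0.051% and DMSO at 0.057% and 0.113%, so that the combination lay at the level of AsiDNA and of 1 DMSO library. The ratio was 0.525 for antisense genes and 0.679 for lincRNA genes other than MALAT1 and NEAT1. In the other direction, histone genes took 0.165% and 0.182% of counts in the combination against 0.0479% and 0.0461% with belinostat. The mitochondrial genome took 1.2% and 0.815% against 0.543% and 0.46%, and miscellaneous RNAs, most of whose reads are 7SL RNA, took 0.2% and 0.225% against 0.0701% and 0.077%. This last sum went against the class gene by gene, where 15 of 44 were lower and 4 higher (median -1.60). Small nuclear and nucleolar RNAs took 0.0468% and 0.0469% in the combination against 0.0664% and 0.0637% with belinostat, a ratio of 0.72.

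**Figure D3:**
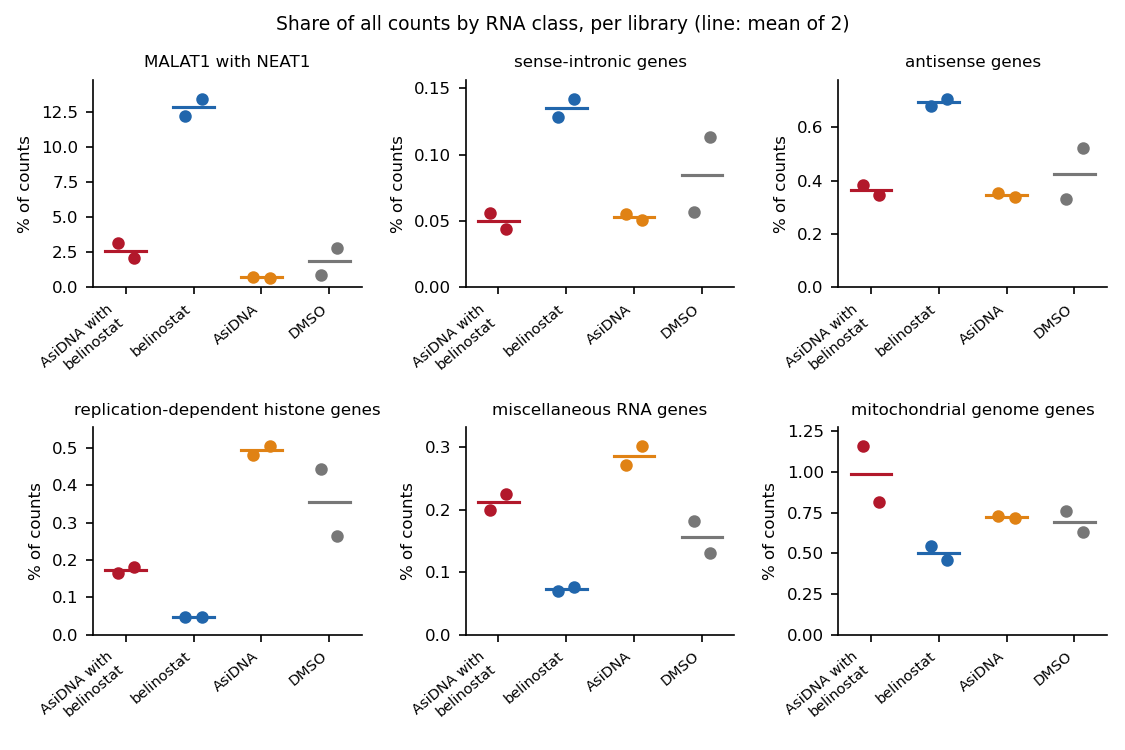
Share of all counts, in percent, taken by 6 classes of RNA in each library (points) with the mean of the 2 libraries of a group (lines). The combination lies below belinostat for MALAT1 with NEAT1, sense-intronic and antisense genes, and above it for histone, miscellaneous and mitochondrial RNAs, with no overlap in any panel, and the DMSO libraries lie far apart in several.

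Sense-intronic genes were also lower gene by gene. Of 252 sense-intronic genes tested 132 (52.4%) were lower and 1 (0.397%) higher, with a median log2 fold change of -1.57. In 214 of them both combination libraries were below both belinostat libraries, and in 4 they were above. NPTN-IT1, an intronic transcript of the gene NPTN, had 8.51 and 7.43 CPM in the combination, against 30.9 and 25.4 CPM with belinostat (-1.83 ± 0.29), and ANKRD10-IT1 had 7.01 and 6.27 CPM against 16.2 and 20.3 CPM (-1.45 ± 0.28). These examples were chosen after their values were seen. Antisense genes had a median of -0.78 and lincRNA genes -0.72, while protein-coding genes had 0.10, with 26.2% higher and 18.5% lower. Only 252 of 889 sense-intronic genes were tested, at a median log2 CPM of 0.9. Tested antisense and lincRNA genes were also low, at 1.26 and 1.27. A gene could pass the filter on low counts through the belinostat libraries alone, where these classes took their largest shares. This favours genes lower in the combination. The shares of counts above were taken without the filter. Because the strand setting of the counting is not given in the sources used here, antisense and sense reads may not be separated.

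Among protein-coding genes the direction moved with the annotation of retained introns and with gene span. Where no exon base of a gene was found only in retained-intron transcripts, 31.1% of genes were higher and 10.7% lower, with a median of 0.24 over 5048 genes. Where over 50% of exon bases were found only in such transcripts, 18.4% were higher and 31.2% lower, with a median of -0.12 over 468 genes. Among genes with a mean log2 CPM of at least 5 the medians of these bins were 0.34 and 0.05. By span, genes of up to 5 kb had a median of 0.40, with 39.8% higher and 10.3% lower, and genes over 200 kb had -0.09, with 12.9% higher and 22.5% lower. The part of nuclear RNA content in the differences of single genes was not tested beyond the fits given next.

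**Figure D4:**
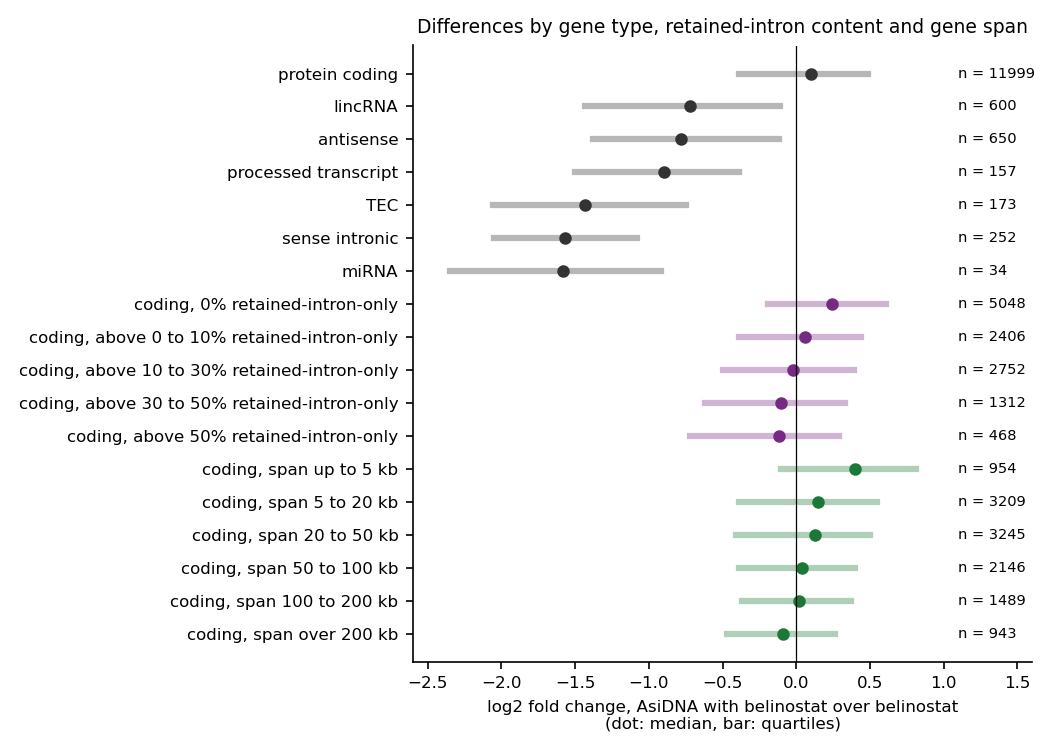
Median (dots) and quartiles (bars) of the log2 fold change of the combination over belinostat for gene types, for protein-coding genes binned by the share of exon bases found only in retained-intron transcripts, and for protein-coding genes binned by span, with the number of genes. Sense-intronic genes centre on -1.57 and protein-coding genes on 0.10, and the median falls to -0.12 in the bin above 50% retained-intron-only and to -0.09 in the bin over 200 kb.

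A further fit gave each library its log2 share of sense-intronic counts as a term of the model. With it 59 genes were higher and 26 lower in the combination, in place of 3237 and 3161, and 49 of the higher and 20 of the lower were among those called without the term. With the share of MALAT1 and NEAT1 as the term the counts were 58 and 26. The median standard error grew to 0.31 in both fits, against 0.2 without a term, and the slope of the term rests on differences within groups, which were largest between the DMSO replicates. Calls could therefore be lost through a smaller estimate or a wider error. The estimates did shrink: the median of the histone list was 0.86 and 0.85 in the 2 fits, with 16 of 51 genes higher in each, against 2.02 and 50. The ribosomal protein median was 0.32 and 0.31, the heat shock median 0.13 and 0.14, the median of nuclear long noncoding RNAs -0.13 in both and that of the CLK and SRPK kinases -0.07 and -0.05. The DNA replication median was 0.39 in both, against 0.53, and that of mitochondrial genome genes 0.69 and 0.70, against 0.58.

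MALAT1 was at -0.35 with the sense-intronic term (edgeR adjusted p = 0.524), and NEAT1 was at 0.15 (edgeR adjusted p = 0.856). XRCC5, XRCC6, PARP1 and PRKDC were at 0.14, 0.10, 0.22 and 0.08, with edgeR adjusted p from 0.788 to 0.938. There were 68 genes that passed in the same direction without a term and with each of the terms, 49 higher and 19 lower, and they were picked out after the fits had been seen. Of the 49, 16 were histone genes, among them H2AC12 (1.67 with the sense-intronic term and 1.68 with that of MALAT1 and NEAT1), H2BC17 (1.5 and 1.51) and H1-5 (1.05 in both). RN7SL1 was at 1.11 in both fits, TIMP1 at 0.98 and 1.0, the G1 cyclin gene CCND1 at 0.96 and 0.95, and the chromatin protein gene HMGA1 at 1.22 and 1.23. The lower genes included FOS (-2.52 and -2.42), FOSB (-1.46 and -1.38), EGR1 (-1.23 and -1.22), the cyclin gene CCNL1 (-0.89 and -0.88) and SRSF2 (-0.96 in both). SNORD3A was also among the 19 (-29.17 and -16), but it had 1307 and 4 counts with belinostat, so its fall rests on 1 library.

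**Figure D5:**
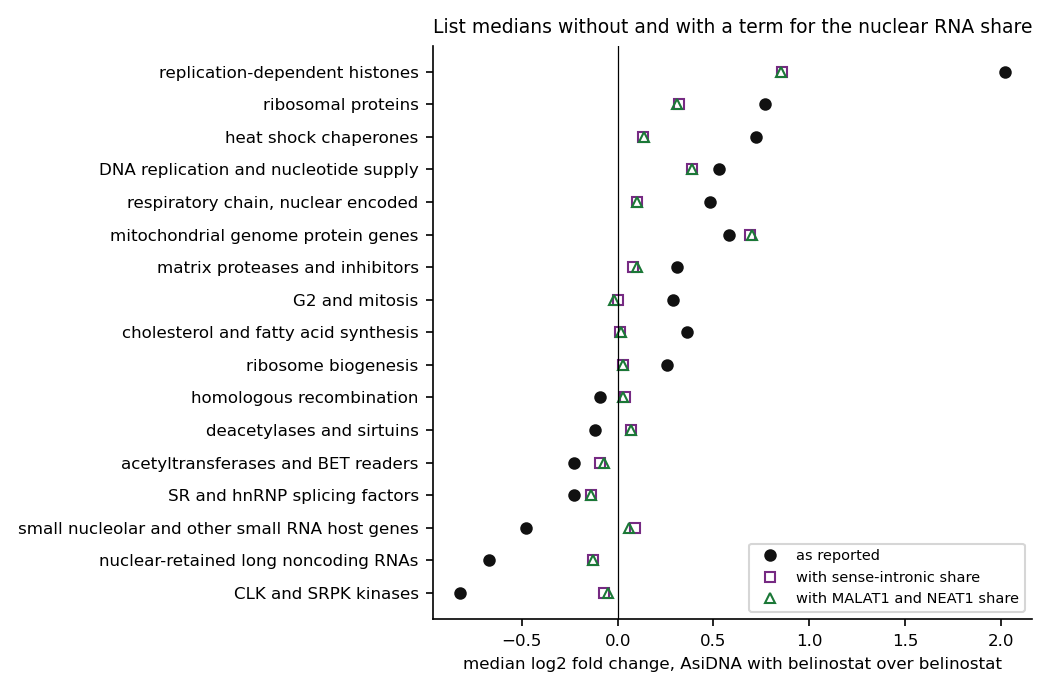
Median log2 fold change of the combination over belinostat for 17 gene lists, as reported (filled circles) and with the log2 share of sense-intronic counts (squares) or of MALAT1 and NEAT1 (triangles) as a model term. The histone median is 2.02 without and 0.86 and 0.85 with a term, most other medians lie nearer to 0 with a term, and that of the mitochondrial genome is 0.58 without and 0.69 and 0.70 with a term.

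The AsiDNA effect under belinostat was also set against the AsiDNA effect without it, that is the combination minus belinostat less AsiDNA minus DMSO. AsiDNA against DMSO passed in 3 genes, or 0.0204% of those tested (edgeR), with 1674 at an unadjusted p under 0.05. The difference of the effects passed in 1 gene (0.00678%), with 3203 at an unadjusted p under 0.05. That gene was AAAS, which encodes the nuclear pore protein aladin (chromosome 12, 53307456 to 53324864). It had 46.6 and 43.5 CPM in the combination, against 117 CPM in both belinostat libraries, and 38.6 and 35.1 CPM with AsiDNA, against 33.2 and 38.2 CPM with DMSO. The combination was 1.38 ± 0.13 below belinostat on the log2 scale, AsiDNA was at 0.05 ± 0.13 over DMSO, and the difference was -1.42 ± 0.19 (edgeR adjusted p = 0.044). Other genes fell just short of the threshold. Among them were H2AC12 (2.25 ± 0.37), H2BC17 (2.22 ± 0.35) and SRSF2 (-1.07 ± 0.16), each with an edgeR adjusted p of 0.0515 for the difference. The count of this comparison rests on the DMSO libraries, whose replicates were over 1.5-fold apart in 11.8% of 8120 genes (mean log2 CPM over 4), against 0.579% in the combination and 0.616% with belinostat. Without DMSO replicate 2 it was 5358 and without DMSO replicate 1 it was 1020. It was 0 when either AsiDNA library, either combination library or belinostat replicate 1 was left out, so that the call of AAAS was lost in those 5 fits, and 1 without belinostat replicate 2. It was also 0 against a 1.5-fold change, and DESeq2 called 649 genes. A single passing gene does not show that AsiDNA acted alike with and without belinostat.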

How the data were processed

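Total RNA of U87 cells was made into stranded libraries after ribosomal RNA removal, per the labels' protocols. The deposited table holds unnormalized counts of reads for each gene, which the authors made with cutadapt 1.16, STAR 2.7.0 on GRCh38 and featureCounts 1.6.3 of Subread, per the submitters' processing notes. The sources used here do not give the annotation release or the strand setting. Names and gene types came from RefSeq and GENCODE 29 records.

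Of 58884 identifiers, 14741 passed filterByExpr. All 8 libraries were fitted with 1 coefficient per group in edgeR 4.0.16 (R 4.3.3) with TMM factors, which left 4 residual degrees of freedom, and tested with the quasi-likelihood F-test and Benjamini-Hochberg adjustment over all genes at 0.05. Tests against a 1.5-fold change used glmTreat, and DESeq2 1.42.0 was an alternative. Intervals were not needed, and depth limits of 3 counts cover counting error only. The steps were tested on simulated data of 14164 genes, where 92% of 2-fold and 100% of 4-fold changes and 7 of 13964 unchanged genes were called in the simulated comparison of the combination with belinostat. The simulation gave every group the same spread (dispersion 0.014), unlike the DMSO libraries here. It changed 100 genes by 2-fold and 100 by 4-fold, in the combination only and none of low count. The simulated difference of AsiDNA effects called 54 of the 2-fold and 98 of the 4-fold changes.

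Named genes were the 12 largest rises and 12 largest falls among called genes with a symbol, a mean log2 CPM of at least 3 over the 4 libraries (prior count 2) and groups that did not overlap, at most 4 members of each of 48 lists, by adjusted p, and some genes in any case, such as MALAT1, NEAT1, HDAC1 and PRKDC. Some genes the rule names are not reported here. The comparison, its gene lists and its alternatives were chosen with earlier results of these data known. The 7SL, histone family and promoter values were chosen after these data were seen. Replicate numbers were not used to pair the samples in the main fit.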

Additional observations from a re-analysis of the deposited data

Results flagged for a closer look

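AAAS, the nuclear pore gene, was the 1 gene that passed a test of the difference between the AsiDNA effect under belinostat and that without it. H2AC12, H2BC17 and SRSF2 were among genes that fell just short of the threshold, as given above. For AAAS the log2 difference was -1.42, from 46.6 and 43.5 CPM in the combination against 117 CPM in both belinostat libraries, and 38.6 and 35.1 CPM with AsiDNA against 33.2 and 38.2 CPM with DMSO. AAAS also remained lower in the combination than with belinostat when the sense-intronic share was a term of the model (-1.06, edgeR adjusted p = 0.00848) and with the share of MALAT1 and NEAT1 as the term (-1.07, edgeR adjusted p = 0.00814). The slope of each term rests on differences within groups, largest between the DMSO replicates, where AAAS differed little. These fits therefore do not settle the part of nuclear RNA content in AAAS. The test of the difference (edgeR adjusted p = 0.044) passed in 0 genes when either AsiDNA library, either combination library or belinostat replicate 1 was left out, and in 0 against a 1.5-fold change, while DESeq2 called 649 genes. Groups of 2 libraries are too small for a search for outlying samples.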

How the results depend on the processing

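No called gene of the 201 named changed sign outside the 2 fits with a share term. With the sense-intronic term 15 did: SCARNA10 (-0.28), NEAT1 (0.15), PNPLA7 (0.47), IL18BP (0.07), DDX39B (0.13), CLK4 (0.03), FANCF (-0.09), HDAC8 (0.21), HDAC10 (0.28), CCNT2 (0.04), STX1A (0.24), DLG4 (0.03), LIF (0.11), MSMO1 (0) and SMARCD3 (0.58). With the MALAT1 and NEAT1 term they were SCARNA10 (-0.34), NEAT1 (0.14), PNPLA7 (0.53), DNHD1 (0.04), IL18BP (0.06), DDX39B (0.14), CLK4 (0.01), FANCF (-0.07), HDAC8 (0.23), HDAC10 (0.24), CCNT2 (0.03), STX1A (0.24), DLG4 (0.05), LIF (0.09) and SMARCD3 (0.53). NEAT1 counts are part of the MALAT1 and NEAT1 term, so the value of NEAT1 in that fit was partly set by its own counts. The cause of the other changes of sign was not tested.

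The counts of genes higher and lower (3237 and 3161) were 59 and 26 with the sense-intronic term, 58 and 26 with the MALAT1 and NEAT1 term, 537 and 942 against a 1.5-fold change, and 2057 and 1747 at an adjusted p under 0.01. Leaving out 1 library gave 2086 to 4395 higher and 1056 to 4083 lower, the lowest without combination replicate 2 (2086 and 1056). The 4 compared libraries alone gave 3932 and 4007. The share of calls that were higher was 50.6%, 36.3% against a 1.5-fold change, and 69.4% and 69% with the terms. ATP6V1FNB, lower without a term (-1.39), was called higher with the sense-intronic term (1.48, edgeR adjusted p = 0.049).

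The difference of AsiDNA effects, 1 gene, gave 10 with RLE factors, 157 with library size only, 649 with DESeq2, 1549 without a filter, 351 with a 1 CPM filter, 386 without the 10 most abundant genes, 3 with protein-coding genes only, 0 against a 1.5-fold change and at an adjusted p under 0.01, 238 and 403 with the terms, and 0 to 5358 with 1 library left out. As shares of protein-coding counts and the class alone, the ratios were 0.468 for antisense, 0.604 for lincRNA, 0.639 for small nuclear and nucleolar RNA, 2.56 for miscellaneous RNA, 3.28 for histones and 1.42 for ribosomal proteins.

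Replicate numbers are shared across groups, but the deviations of same-numbered libraries correlated at -0.018 between the combination and belinostat. The correlation was -0.373 for the combination with DMSO and 0.237 for belinostat with DMSO, and from -0.042 to 0 for the other pairs of groups. With the replicate block 3201 genes were higher and 3150 lower, and 19 passed in the difference of effects.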

Other observations

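SNORD3A, a small nucleolar RNA of ribosome processing, was called lower in the combination through 1 library and was picked out after its counts were seen. It had 4 and 6 counts in the combination, against 1307 and 4 counts with belinostat, 11 and 14 with AsiDNA and 17 and 10 with DMSO. Its copies SNORD3B-1 and SNORD3C had 7 and 14 and 15 and 8 counts in the combination, against 1 and 3 and 0 and 1 counts with belinostat.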
